A study of Mus musculus with 2 samples.

Results

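Keratin and keratin-associated genes sit side by side in large clusters, and the chromatin contacts of 3 such clusters in mouse liver are described here. The members are the protein-coding genes on chromosomes 11, 15 and 16 whose symbols start with Krt and a digit or with Krtap, 100 of the 21627 protein-coding genes of the mm10 gene table. They overlapped 50 of the 54521 bins of 50 kb in which contacts were counted. Foxa2 HiChIP had been performed on liver of wildtype mice that received vehicle, or GW4064, an agonist of the bile acid receptor FXR, once by oral gavage. Liver was collected 4 h later in both groups, and about 200 mg of tissue per liver was pulverised. HiChIP joins proximity ligation, here with the Arima-HiC+ kit, to immunoprecipitation, here with a rabbit antiserum specific for Foxa2, a forkhead transcription factor that opens chromatin in liver. There was 1 library per group, so every difference below is between these 2 libraries, and an effect of the library and an effect of GW4064 cannot be told apart.

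Keratins build the intermediate filaments of epithelia as pairs of an acidic type I and a basic type II protein, whose genes lie in separate clusters on separate chromosomes. Hepatocytes use the pair Krt8 and Krt18, and bile duct cells add Krt7 and Krt19. Most other members serve skin and hair: Krt5 and Krt14 the basal epidermis, Krt1, Krt2 and Krt10 its upper layers, Krt25, Krt27, Krt28, Krt71 and Krt73 the inner root sheath, and Krt31, Krt35, Krt81 and Krt86 the hair shaft. Keratin-associated proteins, encoded by the Krtap genes, embed the filaments of the hair shaft and are cysteine-rich or rich in glycine and tyrosine. Krt18 is an exception to the division by type, since this type I gene lies beside Krt8 at the end of the type II cluster.

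The type I cluster on chromosome 11 ran from Krt222 to Krt42 (mm10, 99232761 to 100269951) and held 50 members, 27 keratin genes around a central block of 23 Krtap genes, in 21 bins. The type II cluster on chromosome 15 ran from Krt80 to Krt18 (101348315 to 102032026) and held 26 keratin genes in 14 bins. The third cluster, on chromosome 16, ran from Krtap24-1 to Krtap11-1 (88610709 to 89571183) and held 24 Krtap genes in 15 bins, among 34 other coding genes, most of which have only predicted-gene names. Coding genes were denser in the clusters than in the 2 Mb on each side. There were 60 coding genes per Mb against 36 for type I, 36 against 23.75 for type II, and 58 against 7.25 on chromosome 16.

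The word of a TATA box stood before most Krtap genes and before few type II keratin genes, Krt8 and Krt18 not among them. The 250 bases before the start were available from RefSeq (GRCm38.p6) for 80 of the 100 members and for 17273 protein-coding genes. That word, TATAAA, was searched on the sense strand. It occurred before 36 of 44 Krtap genes (81.8%), before 3 of 16 type II keratin genes (18.8%) and before 51 of all 80 members (63.8%), against 8.43% of all promoters. Counting either strand raised the members to 53 and the share of all promoters to 12.5%. The Sp1-type word GGGCGG stood on either strand before 2 members (2.5%) and 43.2% of all genes, and the median GC content was 42.6% for members and 55.6% for all. Forkhead words of the Foxa kind, TGTTTAC or TGTTTGC on either strand, occurred before 7 members (8.75%) and 6.44% of all genes. None stood before the 16 type II genes. The promoters of Krt8 (chr15:102004343-102004592, minus strand), Krt18 (chr15:102027966-102028215, plus strand), Krt31, a hair shaft keratin (chr11:100050552-100050801, minus strand), and Krtap6-1, a glycine- and tyrosine-rich hair protein (chr16:89031449-89031698, plus strand), show windows with and without it, 5′ to 3′ with the start following the last base and TATAAA in capitals.
Krt8: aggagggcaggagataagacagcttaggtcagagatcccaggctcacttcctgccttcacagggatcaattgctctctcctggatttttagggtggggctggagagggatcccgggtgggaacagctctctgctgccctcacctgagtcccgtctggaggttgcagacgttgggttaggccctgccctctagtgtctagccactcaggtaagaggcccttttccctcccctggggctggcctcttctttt
Krt18: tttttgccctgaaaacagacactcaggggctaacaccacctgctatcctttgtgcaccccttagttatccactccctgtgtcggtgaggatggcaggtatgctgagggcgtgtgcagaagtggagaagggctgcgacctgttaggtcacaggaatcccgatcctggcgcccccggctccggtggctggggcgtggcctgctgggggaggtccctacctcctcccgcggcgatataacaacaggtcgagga
Krt31: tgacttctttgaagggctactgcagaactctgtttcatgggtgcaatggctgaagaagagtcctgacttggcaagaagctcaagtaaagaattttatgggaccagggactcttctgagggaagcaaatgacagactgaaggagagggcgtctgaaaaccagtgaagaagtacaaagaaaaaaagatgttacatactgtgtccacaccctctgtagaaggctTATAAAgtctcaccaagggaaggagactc
Krtap6-1: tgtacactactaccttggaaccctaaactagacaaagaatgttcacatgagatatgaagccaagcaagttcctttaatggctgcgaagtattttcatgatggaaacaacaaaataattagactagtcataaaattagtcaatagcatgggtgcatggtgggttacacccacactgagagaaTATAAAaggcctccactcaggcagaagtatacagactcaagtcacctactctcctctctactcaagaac
TATAAA began 29 bases before the start of Krt31 and 69 bases before that of Krtap6-1, and none of the searched words occurred in the windows of Krt8 and Krt18. The lack of TATAAA was shared by 13 of the 16 type II genes, the hair keratins Krt82 and Krt84 among them. A word is a match of letters only, and bins of 50 kb cannot place a contact at a promoter.

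In all, 22686004 contacts were counted in vehicle and 29003442 in GW4064. Contacts with other chromosomes made up 22.5% and 18.5% of them. Local contacts of a bin, those with other bins up to 1 Mb away on its chromosome, were compared as log2 ratios of GW4064 to vehicle after scaling to equal local totals. Over the 49090 bins whose local contacts in both libraries summed to 200 or more, the median was then 0.02. Intervals are exact 95% intervals and cover counting error only. No test of the treatment was possible and no p-value is given.

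The 3 clusters differed in how many contacts they held before any comparison of libraries. Median local contacts per member bin in vehicle were 132 for type I, 123.5 for type II and 240 on chromosome 16, against 191 over all bins. In GW4064 they were 207, 139.5 and 370, against 271. Both keratin clusters thus lay below the median bin and the chromosome 16 Krtap cluster above it in each library. The same order held for contacts within a bin, with vehicle medians of 110, 88 and 133 against 113 and GW4064 medians of 139, 87 and 203 against 155. Precipitation of a bin and its contact frequency both enter these counts and cannot be told apart.

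Between libraries, local contacts of the type II cluster were lower in GW4064, those of the chromosome 16 cluster were higher, and the type I cluster lay near 0. The type II bins together held 1298 local contacts in vehicle and 1451 in GW4064, a log2 ratio of -0.35 (interval -0.46 to -0.24). The type I bins held 1807 and 2414, a ratio of -0.09 (-0.18 to -0.00). The chromosome 16 bins held 2427 and 3813, a ratio of 0.14 (0.07 to 0.22). Single bins followed their cluster on chromosomes 15 and 16 and were divided on chromosome 11: 14 of 14 type II bins lay below 0, 12 of 15 chromosome 16 bins above 0, and 11 of 21 type I bins below 0. A local contact counts for both of its bins, so the bins of a cluster are not independent of each other. Scaling to all contacts in place of local contacts raised every log2 ratio by 0.15, which moved the median of all bins to 0.17 and turned the type I sum to 0.06. Relative to that median, type I and type II stayed lower.

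A bin was counted as lower or higher in GW4064 when its log2 ratio was past 0.32 in that direction. Of the 49 member bins with 200 or more local contacts, 13 were lower, where 12.5% of all bins were, and 3 were higher, where 5.73% were. Among the 5203 most gene-dense bins, a decile with ties at its edge taken in, where all these member bins lie, 45.8% were lower and 1.94% higher. By cluster, 9 of 14 type II bins, 4 of 20 type I bins and 0 of 15 chromosome 16 bins were lower. The bins that were higher were 2 on chromosome 16 and 1 in type I. With scaling to all contacts the counts became 2, 2 and 0 lower and 0, 4 and 4 higher, beside 5.84% and 23.4% of all bins. At 1.5-fold, 1 member bin was lower and 0 were higher, against 3.19% and 0.226% of all bins.

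**Figure D1:**
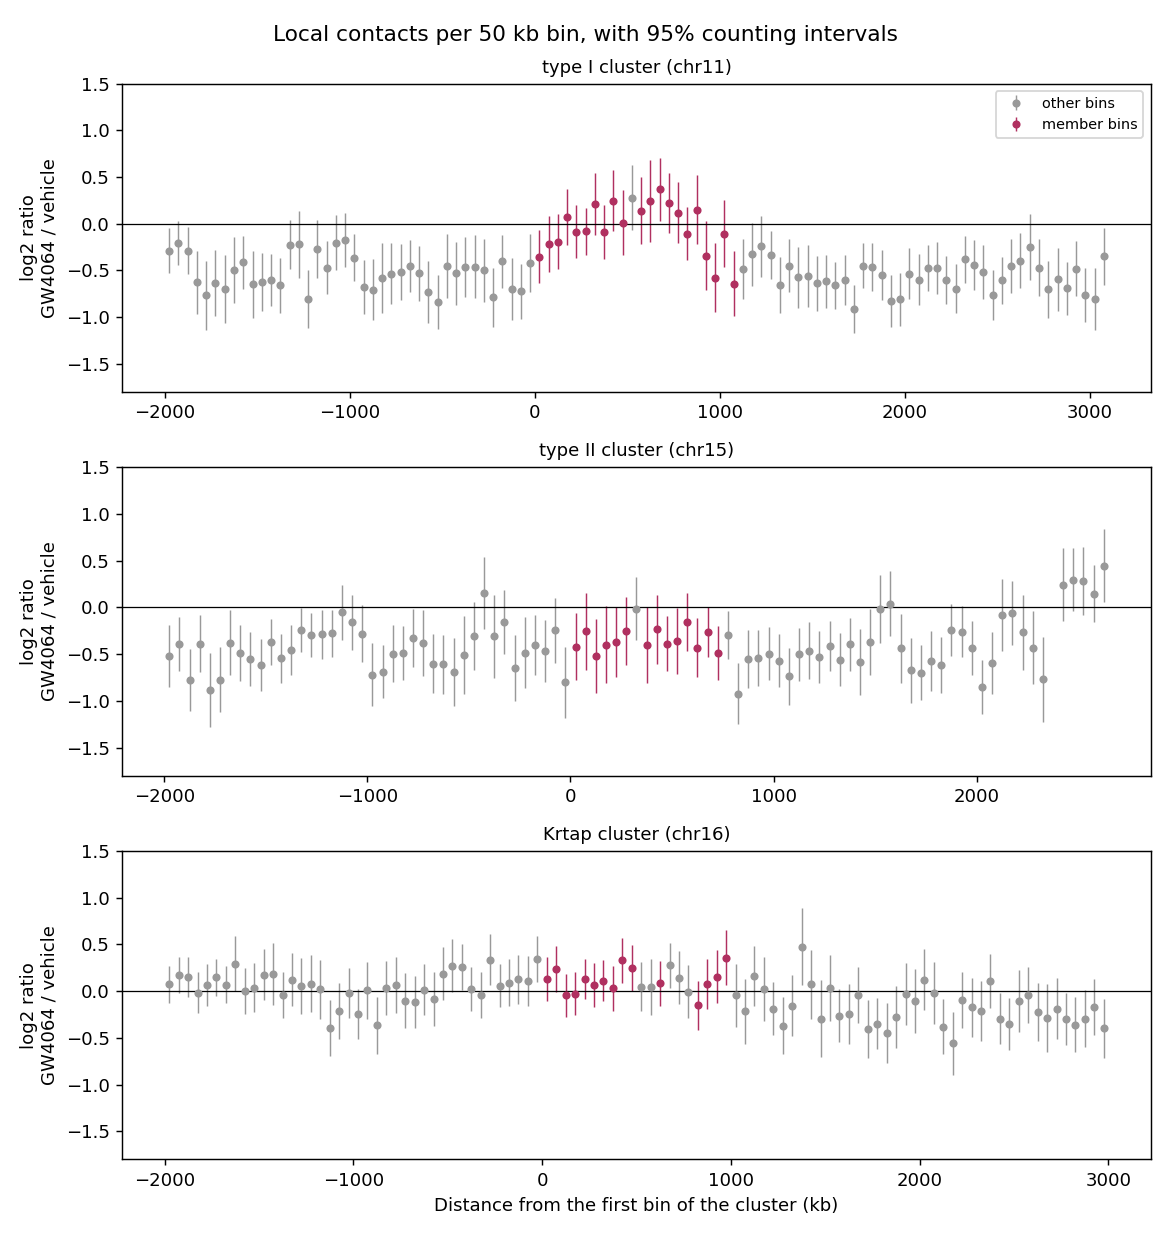
Local contacts along the 3 clusters and their flanks. Each point is a 50 kb bin (red for member bins, grey for others), with the log2 ratio of GW4064 to vehicle (y) at its distance in kb from the first bin of the cluster (x), and bars are 95% counting intervals. Type I bins rise from flanks near -0.50 and -0.55 to values around 0, type II bins stay near their flanks, and chromosome 16 bins lie mostly above 0.

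The type I cluster stood out from its surroundings in this comparison. Its proximal 2 Mb held 4010 local contacts in vehicle and 4037 in GW4064, a log2 ratio of -0.50 (-0.56 to -0.44), and its distal 2 Mb held 4593 and 4450, a ratio of -0.55 (-0.61 to -0.50). All 40 bins on each side lay below 0. Within the cluster the last segment had the lowest ratio, and the intervals of the other segments include 0 and overlap each other. Segments were drawn by gene order after the values had been seen, so their values are a description. The keratins from Krt222 to Krt40, among them those of the inner root sheath and the simple epithelial Krt20 and Krt23, held 934 and 1249 local contacts, a ratio of -0.09 (-0.21 to 0.03). The Krtap block held 750 and 1165, a ratio of 0.13 (-0.01 to 0.26), and the hair keratins Krt33a to Krt36 held 266 and 369, a ratio of -0.04 (-0.27 to 0.20). The last segment, Krt13 to Krt42, which includes Krt14, Krt16, Krt17 and Krt19 and takes in the bin that Krt36 shares with Krt13, was lower, with 412 and 457 contacts and a ratio of -0.36 (-0.55 to -0.16).

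Single type I bins also varied within segments. Their log2 ratios ran from -0.35 to 0.21 in Krt222 to Krt40 and from -0.64 to -0.11 in Krt13 to Krt42. The lowest bin held Krt17, a keratin of skin appendages and of stressed epidermis, with Krt42: it had 148 local contacts in vehicle and 135 in GW4064, a log2 ratio of -0.64 (-0.99 to -0.30). Its neighbour with Krt14 and Krt16 held 118 and 156, a ratio of -0.11 with an interval from -0.46 to 0.25. The bin of the bile duct keratin Krt19, shared with Krt13, Krt15 and Krt36, held 121 and 136, a ratio of -0.34 (-0.70 to 0.02). The highest bin held Krtap4-16 and Krtap9-1 with 116 and 213 contacts, a ratio of 0.37 (0.03 to 0.71). The bin of Krt28 and Krt10 held 154 and 230 (0.07), that of Krt12 and Krt20 185 and 248 (-0.09), and that of Krt23 228 and 307 (-0.08). Krt25 had 170 and 212 (-0.19), and Krt35, with Krt31 and Krt32, had 100 and 158 (0.15). The intervals of 4 of the 21 type I bins exclude 0: those of the Krt17 bin and the Krtap4-16 bin, the Krt9 bin at -0.58 (-0.95 to -0.21) and the Krt222 bin at -0.35 (-0.63 to -0.07).

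In the type II cluster the lower ratio ran through every segment. Krt80 held 215 and 237 local contacts, a log2 ratio of -0.37 (-0.64 to -0.10). Krt7 to Krt75, which takes in the hair keratins Krt81 to Krt87, held 394 and 433, a ratio of -0.37 (-0.57 to -0.17). The keratins from Krt6b to Krt78, with Krt5, Krt1 and Krt2 of the epidermis among them, held 656 and 761, a ratio of -0.30 (-0.45 to -0.14). No segment departed from the cluster value of -0.35. The flanks were alike: -0.44 (-0.50 to -0.38) on the proximal side and -0.39 (-0.46 to -0.32) on the distal side, where 38 of 39 and 30 of 36 counted bins lay below 0. The lowest bin was that of Krt7, shared with Krt87 and Krt88, with 111 and 110 contacts and a ratio of -0.52 (-0.92 to -0.13). The least changed was that of Krt1, Krt76 and Krt77, with 157 and 200 contacts and a ratio of -0.16 (-0.47 to 0.15). Between them lay the bins of Krt81 and Krt86 (99 and 107, -0.40), Krt5 and Krt71 (114 and 138, -0.23), and Krt2 (128 and 142, -0.36).

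The bins of Krt8 and Krt18, the keratins of hepatocytes, held more local contacts than any other member bin of their cluster but shared its ratio. The bin of Krt8, which also holds Krt78, had 210 local contacts in vehicle and 249 in GW4064, and the bin of Krt18, which also takes in the start of Krt8, had 198 and 201. The other 12 type II bins ranged from 94 to 181 in vehicle and from 107 to 200 in GW4064, where the bin of Krt18 was ahead by 1 contact. The next bin after the cluster, which holds no member, had more than either, 241 and 279. Medians over all bins were 191 in vehicle and 271 in GW4064, so the higher counts are not particular to the pair. Together the pair had a log2 ratio of -0.37 (-0.58 to -0.17), and the medians of the pair and of the other 12 bins were -0.38 and -0.38. Contacts within the pair's bins gave a ratio of -0.53 (-0.80 to -0.25), with 232 in vehicle and 223 in GW4064. Contacts with other chromosomes made up 32.3% of the pair's contacts in vehicle and 27.3% in GW4064, while the lowest of the other 12 bins had 34.2% and 30.4%. By bin, the share was 35.3% and 27.0% for the bin of Krt8 and 29.5% and 27.7% for that of Krt18. In vehicle only the bin of Krt18 thus lay below the other 12, and in GW4064 both did.

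The chromosome 16 Krtap genes moved the other way. Krtap24-1 to Krtap15 held 996 and 1511 local contacts, a log2 ratio of 0.09 (-0.02 to 0.21). Krtap19-1 to Krtap20-2, the stretch with the Krtap19 and Krtap6 families, held 1196 and 1885, a ratio of 0.15 (0.04 to 0.25), and Krtap21-1 to Krtap11-1 held 613 and 950, a ratio of 0.12 (-0.03 to 0.27). All 3 segments lay above 0, and the interval of the middle one excludes it. The highest bin was that of Krtap11-1, with 153 and 279 contacts and a ratio of 0.36 (0.07 to 0.65), followed by the bin of Krtap6-1, Krtap6-5 and Krtap22-2, with 230 and 411 and a ratio of 0.33 (0.09 to 0.57). The lowest held Krtap21-1 and Krtap6-2, with 217 and 278 contacts and a ratio of -0.15 (-0.41 to 0.11). The proximal flank was also slightly higher at 0.07 (0.02 to 0.12), and the distal flank was lower at -0.20 (-0.26 to -0.13). Because Krtap genes of a family are near-identical copies, reads that map to several of them could be lost or misplaced, and the handling of such reads is not given in the sources used here.

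Across all bins the log2 ratio fell as gene density rose, and the chromosome 16 cluster departed from that relation by more than the spread of its bins. Gene density is the number of protein-coding genes in the 21 bins around a bin. Its median was 59 for type I bins, 39 for type II bins and 54 on chromosome 16, against 5 over all bins, so all member bins fell in the densest decile (22 to 75 genes). That decile had a median log2 ratio of -0.29 with quartiles of -0.51 and -0.04. The median type I bin lay above it by 0.21, the median type II bin differed by -0.09, and the median chromosome 16 bin lay above it by 0.40. A range of 1 SD of the member bins on each side ran from -0.06 to 0.48 for type I and from -0.19 to 0.02 for type II. On chromosome 16 it ran from 0.26 to 0.54 and alone did not take in 0. Bins of a cluster share contacts, so this range describes their spread and is no error interval. By bins, 17 of 21, 5 of 14 and 15 of 15 lay above the median of the decile. On chromosome 16 the span itself holds 58 coding genes per Mb against 7.25 in the flanks. Whether the difference there depends on counting the genes of the span was not tested. Bins with 5 genes had a median of 0.02 and those with 8 to 10 genes one of -0.06. With density counted over genes other than the members, the differences were 0.20 for type I, -0.20 for type II and 0.37 on chromosome 16.

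Against bins in each cluster's own range of density, a comparison added after the data were seen, the differences were 0.33, -0.08 and 0.45. The 623 other bins with 46 to 66 genes, the type I range, had a median of -0.41 with quartiles of -0.64 and -0.02, and those with 34 to 59 genes, the chromosome 16 range, had one of -0.34 with quartiles of -0.56 and -0.02. Many of these dense bins hold olfactory receptor genes, a family that liver does not use. Such bins had medians of 0.10 and 0.11 in the same ranges, and the remaining bins had -0.51 (quartiles -0.71 and -0.27) and -0.42 (quartiles -0.60 and -0.20). The type I median of -0.08 thus lay inside the quartiles of all bins of its range and above those of the bins without olfactory receptor genes, and the chromosome 16 median of 0.11 lay above both. The type II median of -0.38 lay inside the quartiles of -0.54 and -0.14 of the bins without olfactory receptor genes in its range. Quartiles describe single bins, and a cluster median varies less than a single bin.

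**Figure D2:**
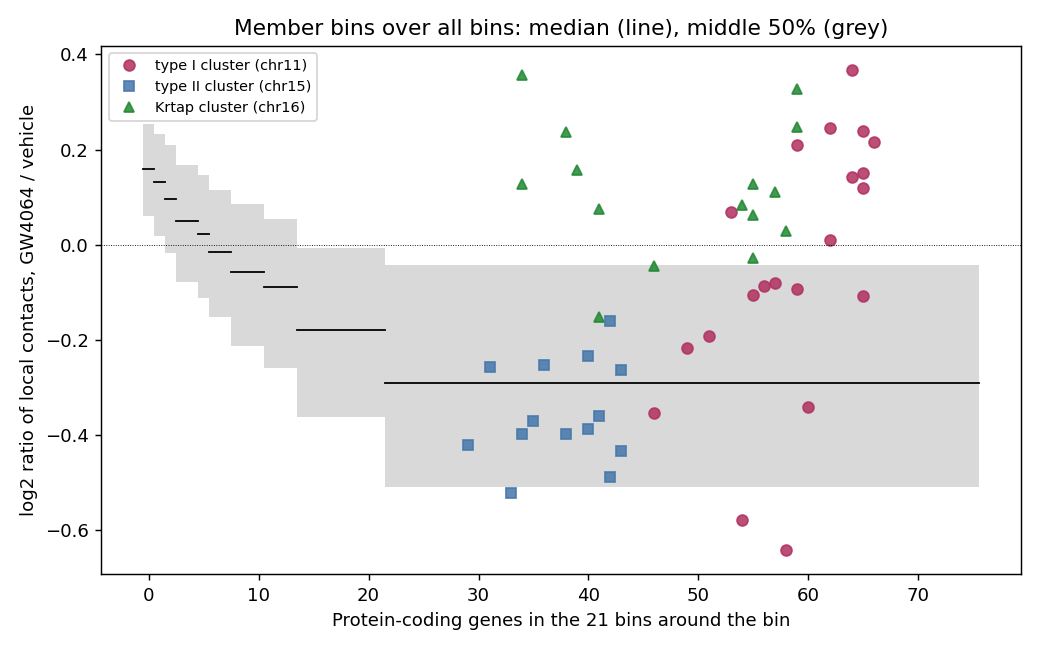
Log2 ratio of local contacts, GW4064 to vehicle (y), against the number of protein-coding genes in the 21 bins around a bin (x). Symbols are member bins, the line is the median of all bins and the grey band its middle 50%. All 15 chromosome 16 bins and 17 of 21 type I bins lie above the median of -0.29 of the densest decile, and type II bins lie around it.

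Contacts inside each cluster were then set against the number expected for bin pairs at the same distance on chromosomes 1 to 19 and X. Pairs of type I bins held 1211 contacts in vehicle and 1724 in GW4064, which is 0.85 times the expected number in each library (intervals 0.80 to 0.90 and 0.81 to 0.89). Pairs of type II bins held 625 and 696, or 0.78 (0.72 to 0.84) and 0.61 (0.57 to 0.66) times expected. Pairs of chromosome 16 bins held 1083 and 1583, or 1.36 (1.28 to 1.45) and 1.404 (1.34 to 1.48) times expected. The log2 ratio of the libraries at matched distance was -0.00 (-0.11 to 0.11) for type I, -0.35 (-0.51 to -0.20) for type II and 0.04 (-0.07 to 0.15) on chromosome 16. Thus, over pairs of member bins, the interval of the internal difference excludes 0 for type II and includes it for the other clusters. With every bin of the span, the chromosome 16 interval also excludes 0, at 0.10 (0.02 to 0.19). Within the flanks of type II the ratios were -0.43 (proximal) and -0.38 (distal), so a lower value was not particular to that cluster.

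Where the side of 1 is concerned, these values depend on the expectation. When the expected number also used the coverage of both bins, the internal ratio became 1.12 and 1.31 for type I, 1.301 and 1.66 for type II, and 0.92 and 0.79 on chromosome 16. Every cluster then stood on the other side of 1 from its distance-matched value. Among all windows of the same length, the distance-matched value of the whole span exceeded 21.7% of windows in vehicle and 30.5% in GW4064 for type I, 17.0% and 10.3% for type II, and 83.6% and 85.4% on chromosome 16. None of the spans was outside the middle 95% of windows.

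**Figure D3:**
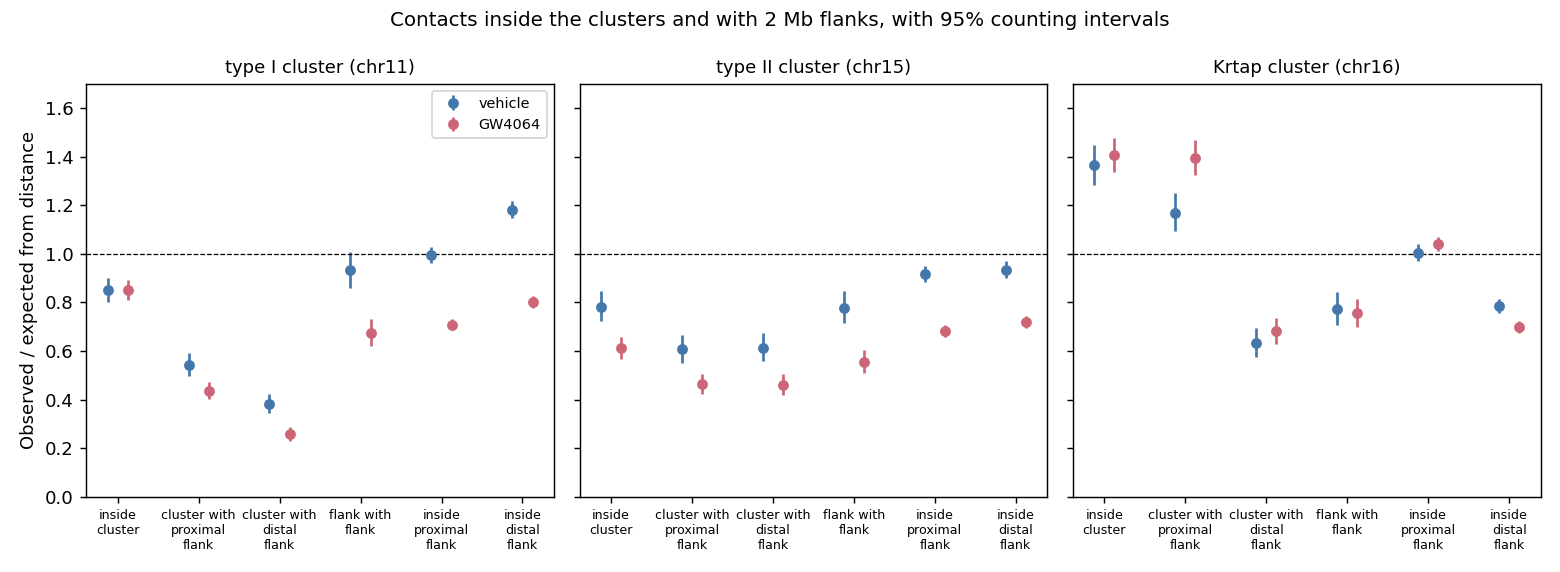
Observed over distance-expected contacts (y) inside each cluster, between the cluster and its 2 Mb flanks, and between the flanks across the cluster, for vehicle and GW4064. Bars are 95% counting intervals and the dashed line is 1. For type I the values with the flanks (0.54 and 0.38 in vehicle) lie below both the inside (0.85) and the flank-to-flank value (0.93). Type II shows the same order, with 0.61 and 0.61 below 0.78 and 0.78 in vehicle.

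The type I cluster had few contacts with its flanks. With the proximal 2 Mb it held 508 contacts in vehicle and 565 in GW4064, or 0.54 (0.49 to 0.59) and 0.44 (0.40 to 0.47) times expected, and with the distal 2 Mb it held 359 and 335, or 0.38 (0.34 to 0.42) and 0.26 (0.23 to 0.29) times. The flanks contacted each other across the cluster at 0.93 (0.86 to 1.01) and 0.67 (0.62 to 0.73) times expected, above either value between cluster and flank in the same library. Type II had the same order, with 0.78 and 0.56 from flank to flank against 0.61 and 0.46 with either flank. On chromosome 16 the flank-to-flank values, 0.77 and 0.75, lay between those of the cluster with its proximal and distal flanks. Flank-to-flank values with coverage in the expectation were not computed. With coverage in the expectation the values of the type I cluster with its flanks were 0.73 and 0.84 (proximal) and 0.51 and 0.51 (distal). They remained below the internal 1.12 and 1.31.

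The distal end of the type I cluster, after Krt42, was a steep edge in contact frequency. Insulation was scored as the log2 of the contacts across a position within 500 kb on each side over the chromosome's mean. It uses raw counts, so the coverage of the bins enters it. At base 100300001 of chromosome 11 it was -1.66 (-1.95 to -1.38) in vehicle, from 103 contacts, with 0.042% of positions on the chromosome lower. In GW4064 it was -1.99 (-2.28 to -1.72), from 109 contacts, the lowest position of the chromosome. The proximal edge was shallower, at -0.36 (-0.55 to -0.18) and -0.79 (-0.97 to -0.61). For type II the proximal edge before Krt80 scored -1.07 and -1.26 and the distal edge after Krt18 scored -0.55 and -1.04. The chromosome 16 cluster had no proximal edge by this score (0.32 and 0.57), and its distal edge after Krtap11-1 scored -0.68 and -0.66.

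Inside the type I cluster the keratin genes of both ends contacted each other across the Krtap block. The segment from Krt222 to Krt40 and that from Krt33a to Krt36, separated by the Krtap genes, shared 54 contacts in vehicle and 89 in GW4064, 2.00 (1.505 to 2.61) and 2.35 (1.88 to 2.89) times the number expected from distance. Krt222 to Krt40 and Krt13 to Krt42 shared 81 and 111, 1.85 (1.47 to 2.30) and 1.82 (1.501 to 2.198) times expected. Contacts of the Krtap block with itself were 0.69 (0.60 to 0.78) and 0.79 (0.72 to 0.88) times expected, and with Krt13 to Krt42 0.64 and 0.68 times. By distance alone, the pairs farthest apart along the cluster thus had the highest ratios, and pairs that include the Krtap block stayed below 1. The remaining pairs, of keratin segments only, also stayed below 1. Krt33a to Krt36 with Krt13 to Krt42 gave 0.68 and 0.50, and Krt13 to Krt42 with itself gave 0.81 and 0.52. Krt33a to Krt36 with itself gave 0.66 and 0.82, and Krt222 to Krt40 with itself gave 0.96 and 0.88. Values below 1 were thus not particular to the Krtap block. With coverage in the expectation the end-to-end values were 2.29 and 3.10, and 2.36 and 3.25, while the Krtap block with itself gave 1.06 and 1.23. The block then gave 1.05 and 1.29 with Krt222 to Krt40, and 0.94 and 1.28 with Krt13 to Krt42. Most of its values thus no longer lay below 1. The limit on reads of near-identical Krtap genes applies to this block as well.

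As a background, the same arrangement of bins was placed at every position of chromosomes 1 to 19 and X. The value for Krt222 to Krt40 with Krt33a to Krt36 exceeded 93.6% of placements in vehicle and 95.8% in GW4064, and that with Krt13 to Krt42 exceeded 91.7% and 89.2%. Placements overlap each other, and the segments had been drawn with values in view. Bin pairs with at least 10 contacts in each library numbered 27 and were ranked by their ratio over both libraries together. The intervals below do not allow for the choice of the highest pair. That pair joined Krt23, a keratin of simple epithelia, and the hair keratins Krt33a, Krt33b, Krt34 and Krt31. These bins lie 550 kb apart and shared 14 contacts in vehicle and 15 in GW4064, or 6.06 (3.31 to 10.2) and 4.58 (2.57 to 7.56) times expected. In the next pair, the Krt33a bin met the bin of Krt12 and Krt20 with 11 and 11 contacts, 5.20 and 3.67 times expected.

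**Figure D4:**
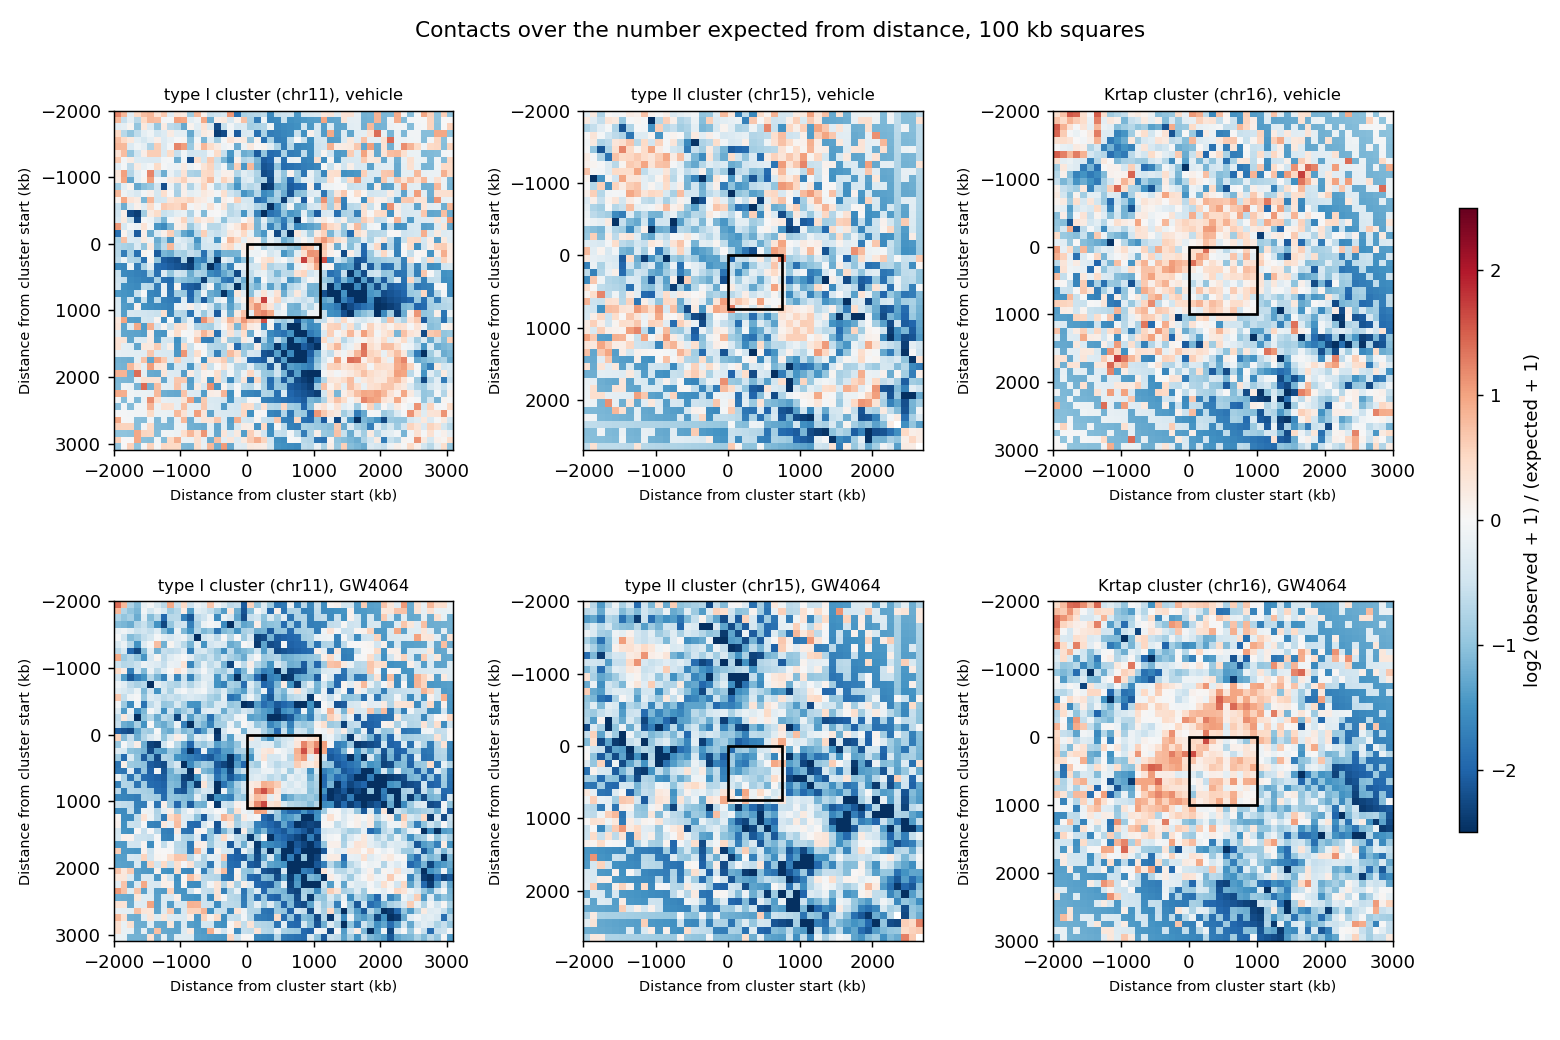
Contact maps of the 3 clusters (columns) in vehicle and GW4064 (rows). Colour is the log2 of observed plus 1 over distance-expected plus 1 contacts in squares of 100 kb, both axes give the distance in kb from the start of the cluster, and the box outlines the cluster. In the type I maps the corner of the box, where both ends meet, holds 2.00 and 2.35 times the expected contacts for Krt222 to Krt40 with Krt33a to Krt36, and the strips beside the box are depleted.

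In the type II cluster the Krt8 and Krt18 bins, which hold the most local contacts, shared 167 contacts in vehicle and 196 in GW4064 with the other members, 1.26 (1.08 to 1.47) and 1.03 (0.89 to 1.19) times expected, whereas the bins of Krt80 at the other end shared 104 and 112 with the rest, 0.80 (0.65 to 0.97) and 0.60 (0.49 to 0.72) times. With Krt7 to Krt75 the pair shared 34 and 40 contacts, 1.65 (1.14 to 2.31) and 1.36 (0.97 to 1.85) times expected, above 87.1% and 76.6% of placements of these bins. With Krt80 the pair shared 16 and 12, 2.04 (1.16 to 3.31) and 1.09 (0.56 to 1.90) times expected, above 91.4% and 62.1% of placements. With coverage in the expectation these values were 2.57 and 3.64 for Krt7 to Krt75 and 3.62 and 3.596 for Krt80. Towards the cluster, over the next 500 kb, the pair held 1.21 (1.02 to 1.42) and 1.05 (0.91 to 1.21) times the expected contacts, and away from it 1.03 (0.86 to 1.22) and 0.75 (0.63 to 0.89). The intervals of both sides overlap in vehicle and do not in GW4064.

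By contrast, the hair keratin stretch Krt7 to Krt75 held few contacts with itself, 53 in vehicle and 56 in GW4064, or 0.42 (0.32 to 0.55) and 0.32 (0.24 to 0.41) times expected. Only 2.05% and 1.199% of placements of these 4 bins were lower. With coverage in the expectation the values were 0.85 and 1.02, so the low value goes with low coverage of these bins. The bin pair with the highest ratio in the cluster joined Krt72 and Krt73, of the inner root sheath, to Krt78 and Krt8, 200 kb away, with 19 and 26 contacts, 3.16 (1.90 to 4.94) and 2.94 (1.92 to 4.31) times expected. With their flanks the type II bins held 0.61 and 0.46 times the expected contacts on the proximal side and 0.61 and 0.46 times on the distal side. With coverage in the expectation these became 1.05 and 1.36 on the proximal side, which turns their side of 1, and 0.80 and 0.97 on the distal side.

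The chromosome 16 cluster had its highest distance-matched ratio at its proximal end and more contacts with its proximal than with its distal flank. Krtap24-1 to Krtap15 contacted itself at 1.68 (1.496 to 1.88) and 1.76 (1.60 to 1.93) times expected, from 306 and 451 contacts. Krtap21-1 to Krtap11-1 did so at 1.04 (0.87 to 1.24) and 1.04 (0.89 to 1.202). With the proximal 2 Mb the cluster held 1.17 (1.09 to 1.249) and 1.396 (1.33 to 1.47) times the expected contacts, and with the distal 2 Mb 0.63 (0.57 to 0.69) and 0.68 (0.63 to 0.73). With coverage in the expectation the proximal values were 0.88 and 0.89, on the other side of 1. Its highest bin pair joined Krtap27-1 to Krtap14 and Krtap15 at 150 kb, with 24 and 50 contacts, 3.08 (1.97 to 4.58) and 4.34 (3.22 to 5.73) times expected.

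Compartments separated the Krtap cluster of chromosome 16 from the other clusters. The score is the first eigenvector of the contact correlation in bins of 250 kb, in units of its standard deviation and positive on the gene-rich side. It averaged -1.33 in vehicle and -1.39 in GW4064 on chromosome 16, with 0 of 5 bins positive, although the span holds 58 coding genes per Mb. The type II cluster averaged 0.98 and 0.82 with 4 of 4 bins positive. The type I cluster averaged 0.39 and 0.23, with 6 and 3 of 6 bins positive, between flanks that averaged 1.07 and 0.93 with 16 of 16 bins positive. Hence the type I cluster was less strongly on the gene-rich side than the chromatin around it.

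Partners on other chromosomes gave the same order. Of such contacts of type I bins, 16.3% (15.2% to 17.4%) in vehicle and 17.6% (16.5% to 18.7%) in GW4064 were with the most gene-dense decile of bins. For type II the shares were 17.5% and 18.0%, and for chromosome 16 they were 5.98% (5.30% to 6.72%) and 5.25% (4.66% to 5.90%), against 10.7% and 9.78% for all bins. Bins with no gene nearby took 4.92% and 4.75% for type I, 4.53% and 3.80% for type II, and 13.5% and 15.3% for chromosome 16, against 9.70% and 10.7%. The keratin clusters thus met gene-dense chromatin more often than the average bin, and the chromosome 16 Krtap cluster less often, beyond counting error in both libraries.

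Contacts with other chromosomes made up 41.4% (40.3% to 42.5%) of the contacts of type II bins in vehicle and 37.7% (36.6% to 38.8%) in GW4064. The shares were 33.4% and 30.3% for type I and 34.1% and 28.5% for chromosome 16. By bins, the median type II share was 39.9% in vehicle and 34.6% in GW4064, above 98.8% and 98.0% of all bins, whose medians were 25.9% and 21.8%. The median type I bin, at 30.8% and 28.1%, was above 80.4% and 86.8% of all bins, and the median chromosome 16 bin, at 31.2% and 26.2%, above 82.4% and 79.5%. Contacts between bins of the same cluster rose as a share from 9.27% (8.77% to 9.78%) to 11.6% (11.1% to 12.1%) in type I, from 8.04% (7.45% to 8.67%) to 9.18% (8.54% to 9.85%) in type II and from 8.31% (7.84% to 8.79%) to 8.81% (8.40% to 9.23%) on chromosome 16. The intervals of the 2 libraries are separate for type I and overlap for the other clusters. The whole GW4064 library also held the smaller share between chromosomes, and its part in these shares was not tested.

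**Figure D5:**
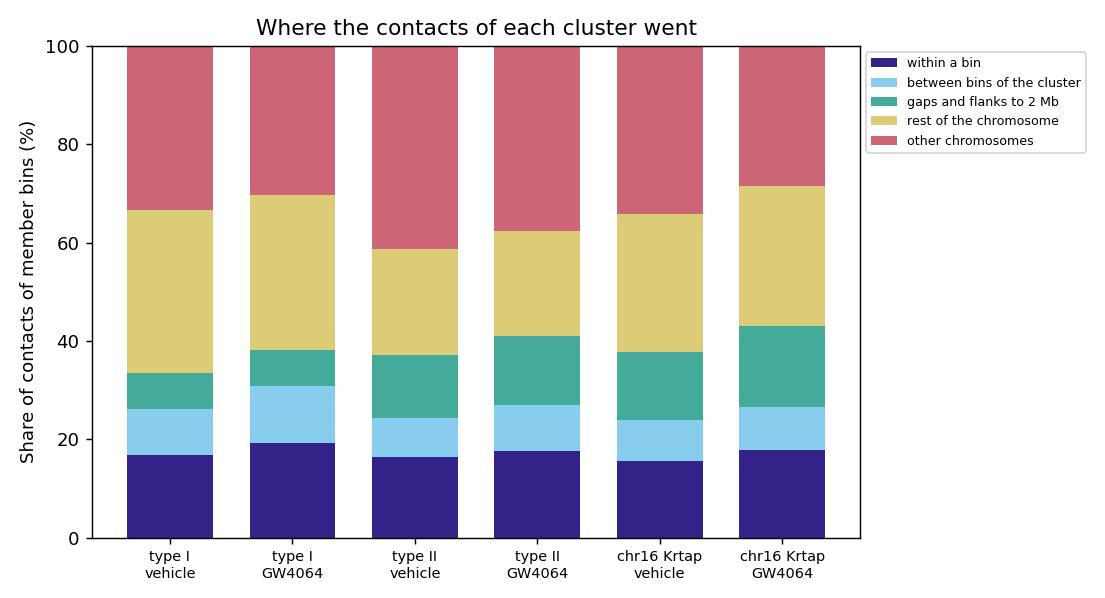
Share of the contacts of member bins (y, percent) in 5 classes for each cluster and library (x): within a bin, between bins of the cluster, gaps and flanks to 2 Mb, the rest of the chromosome, and other chromosomes. Contacts with other chromosomes form the largest part in type II, 41.4% in vehicle and 37.7% in GW4064.

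Type I and type II keratin genes, whose products pair in filaments, lie on different chromosomes, and few contacts joined their clusters. Over both libraries there were 13 contacts between them, 4 in vehicle and 9 in GW4064, where 5.22 were expected from each bin's contacts between chromosomes, a ratio of 2.49 (1.33 to 4.26). By library the ratio was 1.52 (0.41 to 3.89) in vehicle, an interval that includes 1, and 3.48 (1.59 to 6.60) in GW4064. Type I and the chromosome 16 cluster shared 3 contacts against 2.79 expected, and type II and chromosome 16 shared 3 against 2.57. As a background, the type I span was set against every chromosome 15 window of the length of the type II span. By that count the ratio was 2.201 (1.17 to 3.76), above 95.4% of all windows and above 84% of the most gene-dense windows, whose median was 1.52. In the reverse direction, the type II span with every chromosome 11 window of the length of the type I span, it was above 93.2% of all windows and 72.6% of the most gene-dense ones. The excess over the expected number was thus of a size that many gene-dense windows of chromosomes 11 and 15 also showed.

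Related genes elsewhere in the genome were listed for comparison, and their counts stand beside the shares of 12.5% lower and 5.73% higher of all bins. The epidermal differentiation complex of chromosome 3, which encodes filaggrins, small proline-rich and late cornified envelope proteins, had a bin median of 0.14, and 1 of its 33 bins was lower and 10 were higher. Its gene Flg2, of the filaggrin family, held 199 and 409 local contacts, a log2 ratio of 0.53 (0.28 to 0.78), and Flg held 90 and 170 (0.41). Keratin-associated genes on other chromosomes had a median of -0.22, and 1 of their 7 bins was lower and 0 were higher. The list of keratin partners and cornified envelope genes had a median of -0.35, and 14 of its 26 bins were lower and 0 higher. Beside proteins that anchor keratins or form the envelope, it holds Vim, Des, Gfap and Prph, genes of other intermediate filaments. In this list Plec, the linker plectin, held 396 and 294 (-0.94), Evpl, envoplakin, 178 and 149 (-0.77), and Jup, plakoglobin, just beyond the type I cluster, 140 and 159 (-0.33).

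Transcription factors of epidermis and hair had a bin median of -0.07, and 5 of their 21 bins were lower and 0 higher. By locus the median was -0.22, and 5 of 12 loci were lower and 0 higher. Foxn1, needed for hair shaft formation, held 148 and 136 (-0.63), Hoxc13, a regulator of hair keratins, 121 and 127 (-0.44), and Trp63, the master regulator of stratified epithelia, 1332 and 2057 (0.12). Of 5 cholangiocyte marker loci 2 were lower and 0 higher, but the 2 are the members Krt7 and Krt19, and none of the other 3 (Sox9, Epcam and Spp1) was lower or higher. Of 5 hepatocyte marker loci 4 were lower and 0 higher. These counts stand against 32.6% and 1.65% of all protein-coding loci. Contacts do not measure expression, so these markers describe loci and not cells. Among 575 olfactory receptor bins, whose median was 0.11, 13 were lower and 48 higher. Among the 5203 most gene-dense bins, whose median was -0.28, 2384 were lower and 101 higher. This set takes in ties at the edge of the decile and is wider than the 4807 bins with 22 to 75 genes. The chromosome 16 Krtap median of 0.11 and the epidermal differentiation complex median of 0.14 lay on the side of the olfactory receptor bins, and the type II median of -0.38 on that of the gene-dense bins.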

How the data were processed

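Foxa2 HiChIP contacts of 1 vehicle and 1 GW4064 liver library were used. The submitters' processing notes name HiC-Pro, Bowtie2 2.2.9 and mm10. Which HiC-Pro release and filters were applied, whether duplicate reads were removed and whether livers were pooled is not given in the sources used here. Each deposited matrix lists pairs of 50 kb bins with their raw contact count, as the authors made it, with no normalization. The deposited bin tables give a bin number, an index of no other unit, and are the same for both libraries.

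A gene belongs to every bin it overlaps in the RefSeq gene table (GRCm38.p6, the assembly of mm10). A gene's value is that of its bins. Ratios of local contacts were scaled to the total of local contacts on chromosomes 1 to 19 and X, and a bin counted as lower or higher past a log2 ratio of 0.32 if its local contacts in both libraries summed to 200 or more. Expected contacts are the mean per bin pair at the same distance in the same library. For contacts between chromosomes they are the product of the bins' contacts between chromosomes over the total. Ratios have exact conditional binomial intervals, shares Clopper-Pearson intervals and observed over expected values Poisson intervals, all at 95% and for counting error only. The member genes, lists, comparisons and rules were chosen with earlier results of these data known. Segments, placements, windows on other chromosomes and promoter words were added after the data were seen. Named genes are Krt8, Krt18, keratins listed by role, the highest and lowest bin of each cluster and its highest bin pair with at least 10 contacts in each library. Pairs were ranked by the ratio over both libraries together. Genes named from the comparison lists, Krt9, Krt222, Krt76, Krt77, Krt82, Krt84 and the next-highest pair were chosen after their values were seen. Lists were the epidermal differentiation complex, other keratin-associated genes, keratin partners and cornified envelope, regulators of epidermis and hair, cholangiocyte and hepatocyte markers, olfactory receptor genes and the most gene-dense decile of bins, with ties at its edge taken in. Promoter windows are the 250 bases before the first listed start. The ratios and intervals were tested on simulated data. Scripts ran in Python 3.11.15 with scipy 1.17.1, numpy 2.4.6, matplotlib 3.10.9 and pandas 2.3.3.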

Additional observations from a re-analysis of the deposited data

How the results depend on the processing

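No paired analysis was possible because each group holds 1 library and the labels carry no replicate number. For 57 results, 126 alternatives were computed. Of these, 81 stayed within the range of the reported value, 44 moved beyond it and 1 changed the sign of a value whose interval excludes 0. The range was the counting interval, the SD of member bins for gene density, the spread of bins for compartments, or 1.5-fold for counts of bins. Other sign changes were not counted: contacts inside type I went from -0.00 to between 0.02 and 0.10. Scaling to all contacts gave log2 ratios of local contacts of 0.0634 for type I, which changed sign, -0.19 for type II and 0.30 for chromosome 16. At 1.5-fold, 1 member bin was lower and 0 were higher. Gene density without the members moved the type II difference to -0.20. Expectations from distance and coverage, vehicle then GW4064, gave inside values of 1.12 and 1.31 (type I), 1.301 and 1.66 (type II) and 0.92 and 0.79 (chromosome 16). With the proximal flank they gave 0.73 and 0.84, 1.05 and 1.36, and 0.88 and 0.89 in that order, and with the distal flank 0.51 and 0.51 for type I and 0.80 and 0.97 for type II. Expectations from the same chromosome gave, in GW4064, 0.92 inside type I, 0.51 with its proximal and 0.30 with its distal flank. On chromosome 16 they gave 1.28 and 1.29 inside, 1.09 and 1.26 with the proximal flank, and 0.61 in GW4064 with the distal flank. A flank of 1 Mb gave 0.61 for type I with its proximal flank in vehicle, and on chromosome 16 1.27 and 1.54 (proximal) and 0.73 and 0.81 (distal). Every bin of the chromosome 16 span sent 35.0% and 29.9% of its contacts to other chromosomes. Expected from all contacts, type I with type II reached 6.01. Compartment bins of 500 kb gave 1.08 for type II in GW4064. A 250 kb insulation window gave -0.0689 and -0.33 at the proximal and -1.15 (vehicle) at the distal edge of type I, -1.51 (GW4064) at the proximal edge of type II, and -0.25 and -0.65 at its distal edge. The causes of these moves were not tested beyond the construction of each alternative.

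Depth limits single bins: with 72 to 288 local contacts per member bin in vehicle, the intervals of 14 of 50 member bins exclude 0, 7 of them in type II. Contacts between clusters rest on 3 to 13 counts. With 1 library per group, the spread between animals is unknown. Bins of 50 kb hold up to 7 members, so the values of neighbouring genes are often the same value.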
